A study of Mus musculus with 7 samples.

Results

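Genes of mitosis were examined in endothelial cells sorted from mouse lungs at E18.5, shortly before birth: the cyclins and kinases that drive division, the kinesin motors, and the proteins of the kinetochore, spindle and cleavage furrow. The set held 35 genes chosen by symbol. Of these, 33 had a probe set assigned to that gene alone, among 22180 genes with such a probe set, and each of the 33 was covered by a single probe set. Ncapg shared its probe set with Lcorl, and Ccnb1 was unnamed in the annotation table used here, so neither was analysed. All 33 passed a filter that left out the dimmest 25% of genes by their mean over the 7 arrays (below a log2 signal of 2.98).

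Wild-type littermates gave 3 arrays, and embryos labelled Sash1-/-, lacking both gene copies, gave 4, all on a C57BL/6 background. Both groups were viable CD31+/CD45-/CD326- cells from lungs at E18.5, frozen after sorting. RNA was amplified and labelled with the Nugen Pico WTA kit, and 1 Affymetrix array was run per sample. No label ties an array to an embryo or litter or mentions pooling, so a p-value here covers only the variation among these samples, which may be technical. The deleted stretch of Sash1 is not named, and Sash1-/- is given with no restriction to a cell type. Below, WT1 to WT3 and KO1 to KO4 are the arrays labelled wild-type and Sash1-knockout by their replicate numbers, and values are listed in that order, in log2 signal.

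In a dividing cell, CDK1 bound to its cyclins starts mitosis, Aurora and Polo-like kinases build the spindle, and kinetochores attach chromosomes to microtubules. A checkpoint holds the anaphase-promoting complex (APC/C) back until every chromosome is attached, after which cyclin B is destroyed and the cell is cleaved. Transcripts of these genes are low in resting cells and peak between DNA replication and mitosis. They are repressed in resting cells by the DREAM complex and activated by MYBL2 and FOXM1, which reach promoters through a short element called the cell cycle genes homology region (CHR). The CCAAT box, bound by the factor NF-Y, often lies upstream of it. In fetal lung the capillary bed is still expanding, and part of its endothelium divides.

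The promoters are shown first. The genes were chosen by symbol and not by sequence. The background above already ties the CHR to such genes, so a high share among them is no independent finding. RefSeq promoters (GRCm38.p6, 250 bases before to 50 after an annotated start) were found for 31 of the 35 genes, 34 promoters in all. The windows below run from 120 bases before to 50 after the start. They are given for 6 members, each the one of smallest unadjusted p in its role among those with CHR letters. That the promoters of all 6 hold these letters follows from this choice. Capitals mark the CHR letters (TTTGAA or TTCGAA, either strand, so TTCAAA on the opposite strand) and the CCAAT box (CCAAT, or ATTGG on the opposite strand).
Ska3, chr14:57826114-57826283, minus strand: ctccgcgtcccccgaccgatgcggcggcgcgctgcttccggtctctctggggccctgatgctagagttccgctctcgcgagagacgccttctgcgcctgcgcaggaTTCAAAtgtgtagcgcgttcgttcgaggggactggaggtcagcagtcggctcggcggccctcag
Kif2c, chr4:117178723-117178892, minus strand: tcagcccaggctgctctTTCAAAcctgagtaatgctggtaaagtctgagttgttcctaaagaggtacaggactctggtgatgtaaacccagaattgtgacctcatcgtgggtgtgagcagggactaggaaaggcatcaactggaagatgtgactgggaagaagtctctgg
Anln, chr9:22389157-22389326, minus strand: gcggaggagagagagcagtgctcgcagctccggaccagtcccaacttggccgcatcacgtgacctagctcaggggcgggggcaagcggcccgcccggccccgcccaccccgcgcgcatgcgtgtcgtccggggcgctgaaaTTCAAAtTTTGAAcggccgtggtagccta
Plk1, chr7:122159315-122159484, plus strand: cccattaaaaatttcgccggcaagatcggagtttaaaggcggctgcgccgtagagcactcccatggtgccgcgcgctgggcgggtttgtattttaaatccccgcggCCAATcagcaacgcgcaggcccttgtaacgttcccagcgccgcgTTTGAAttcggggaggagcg
Bub1b, chr2:118598091-118598260, plus strand: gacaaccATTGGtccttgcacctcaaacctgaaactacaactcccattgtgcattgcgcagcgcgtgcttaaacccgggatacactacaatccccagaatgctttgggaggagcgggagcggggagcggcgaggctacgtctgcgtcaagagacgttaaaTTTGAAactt
Cdk1, chr10:69352863-69353032, minus strand: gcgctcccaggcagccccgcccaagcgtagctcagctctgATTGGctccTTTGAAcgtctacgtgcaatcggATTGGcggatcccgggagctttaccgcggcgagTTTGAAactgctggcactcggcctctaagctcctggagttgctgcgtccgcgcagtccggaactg

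The CHR letters occurred in 28 of the 34 member promoters (82.4%), against 19.2% of all 32851 promoters of the table. Cep55, Ect2 and Prc1 have overlapping promoters, so some sites count more than once. By gene the letters occurred in 25 of 31 members (80.6%), against 21.7% of all genes with a promoter. CCAAT occurred in 24 of 34 promoters (70.6%), against 37.4%, and by gene in 22 of 31 members, against 41.1%. CHR letters within 50 bases of the start were found in 25 of 34 promoters (73.5%), against 5.31%, a window added after the design was written. The most populated bin, from the start to 25 bases after it, held the letters in 11 member promoters (32.4%) against 1.40% of the other promoters. Cdk1 showed the fullest arrangement of the windows printed, with 2 CCAAT boxes and 2 CHR matches, while Ska3, Kif2c and Anln had CHR letters and no CCAAT. The Kif2c match, at -103 from the start, lay outside the 50-base window, unlike those of Ska3 and Anln. Counted per gene, 22 of 31 members (71.0%) had CHR letters within 50 bases of a start, against 6.12% of all genes with a promoter. In the lists of other cell cycle genes, this was 11 of 21 for other spindle and cytokinesis genes, 9 of 22 for other kinetochore genes and 4 of 31 for DNA replication genes. A match of letters is a description of the sequence and does not show that a factor binds there.

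**Figure D1:**
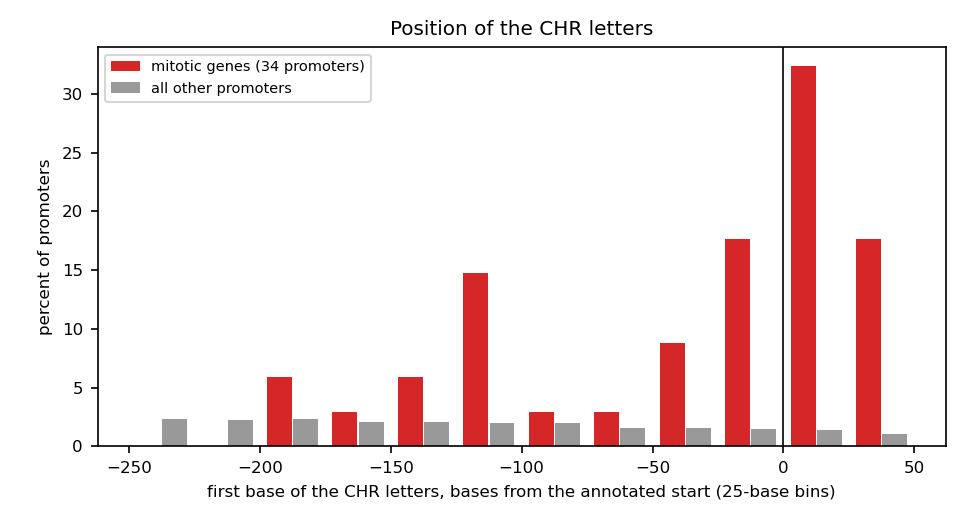
Percent of promoters holding the CHR letters in each 25-base bin, by distance of their first base from the annotated start, for the 34 promoters of the mitotic genes (red) and all other promoters of the table (grey). The mitotic genes peak at 32.4% in the bin just after the start, where the other promoters hold 1.40%. Overlapping promoters of Cep55, Ect2 and Prc1 are counted separately.

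Sash1 itself measured 9.02, 8.73 and 8.33 on WT1 to WT3 and 8.29, 8.21, 8.68 and 8.13 on KO1 to KO4, a difference of -0.37 (95% confidence interval -0.83 to 0.10; adjusted p = 0.971 in limma). WT3 lay just above KO1, and KO3 lay above WT3 and just below WT2, so Sash1 did not separate the labels. Groups are therefore named by their labels, and values without WT3 and KO3 are given below. Pecam1, which encodes the sorting antigen CD31, ranged from 11.03 to 11.21. The pan-endothelial list averaged 9.96 to 10.01 over the WT arrays and 9.93 to 10.09 over the KO arrays. Epithelial markers were present on all arrays (list mean 6.45 to 7.96), although the sort selected against CD326, the product of Epcam.

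Averaged over the mitotic genes, the KO arrays lay 0.23 above the WT arrays in log2, or 1.17-fold, which was less than the spread among arrays of 1 label. The mean of the 33 genes was 5.51, 6.15 and 6.05 on WT1, WT2 and WT3 (5.90 ± 0.34, SD, n = 3). It was 5.94, 6.43, 5.77 and 6.38 on KO1 to KO4 (6.13 ± 0.33, SD, n = 4). The labels overlapped: KO1 and KO3 lay below WT2 and WT3, and KO2 and KO4 lay above every WT array. WT1 and WT2 differed by 0.64 and KO3 and KO2 by 0.66. In such bulk samples, a different number of dividing cells and a different amount of mitotic RNA per dividing cell cannot be told apart.

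Of the 33 genes, 31 had positive and 2 negative differences (KO mean minus WT mean), with a median of 0.21. Over all 16637 genes tested, 54.4% had positive differences and the median was 0.02. With limma and Benjamini-Hochberg adjustment over all genes, 0 of 33 passed an adjusted p of 0.05, as did 0% of all genes, and the members' adjusted p ranged from 0.971 to 1.000. At an unadjusted p under 0.05 there were 2 members, Ska3 and Kif2c, both higher, against 3.34% of all genes in either direction, 2.38% in the higher and 0.962% in the lower direction. The 33 genes are not separate observations of the label, since their values moved together from array to array. Their residual SD within labels had a median of 0.40, against 0.20 over all genes tested, and 32 of 33 lay above that value. The comparison was not matched for signal level, and 31.6% of the genes tested had the same value on 3 or more arrays.

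The shared movement followed single arrays. WT1 was the lowest of the 3 arrays of its label in 29 of 33 genes, and KO3 the lowest of its 4 in 22. KO2 was highest among the 4 in 17 genes and KO4 in 16. Each of the 33 members was lower on WT1 than on KO2 and on KO4, and 32 of 33 were lower on WT1 than on WT3. Over all genes tested, 47.2% were lower on WT1 than on KO2, 45.9% than on KO4 and 41.6% than on WT3.

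**Figure D2:**
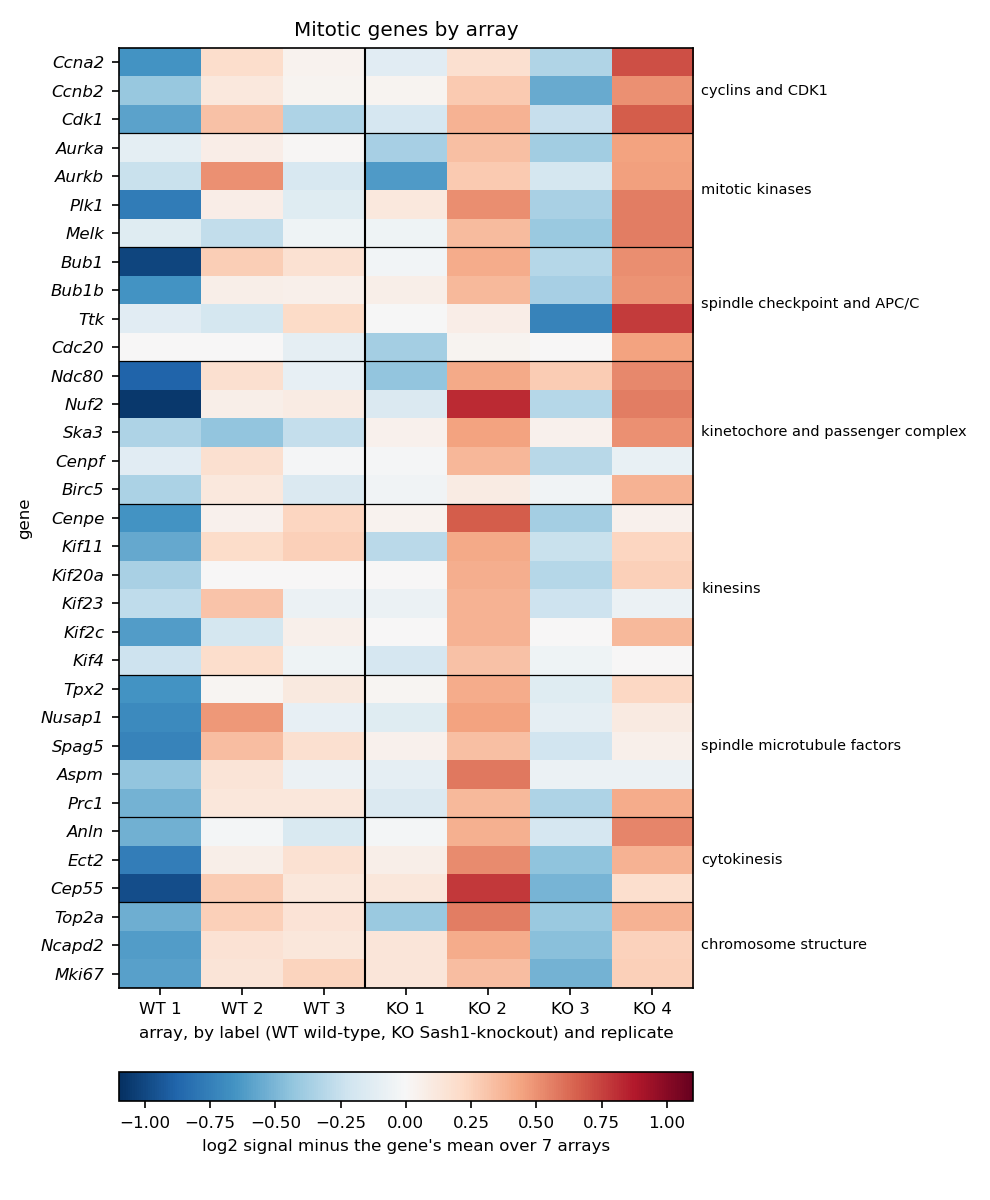
Log2 signal of the 33 mitotic genes on each array, as the difference from the gene's mean over the 7 arrays (red higher, blue lower), grouped by role. The column of WT1 is blue for nearly every gene and those of KO2 and KO4 are mostly red, while KO3 is mostly blue.

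The cell cycle engine comes first. Cdk1, the kinase that triggers mitosis, measured 6.36, 7.27 and 6.61 on WT1 to WT3 and 6.77, 7.33, 6.70 and 7.62 on KO1 to KO4. Its labels overlapped, with WT2 near KO2, and the difference was 0.36 (95% confidence interval -0.34 to 1.06; adjusted p = 0.971 in limma). Ccna2, cyclin A2, which acts with the kinase in late interphase, measured 6.51, 7.36 and 7.20 against 7.04, 7.34, 6.83 and 7.87. Only KO4 exceeded WT2, and the difference was 0.25 (-0.45 to 0.94). Ccnb2, a B-type cyclin, differed by 0.16 (-0.46 to 0.77).

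Among the mitotic kinases Plk1, the Polo-like kinase of spindle assembly and mitotic exit, had the largest difference, 0.48 (-0.18 to 1.15; adjusted p = 0.971 in limma), or 1.40-fold. It measured 5.44, 6.28 and 6.07 on WT1 to WT3 and 6.32, 6.72, 5.85 and 6.77 on KO1 to KO4, so 3 of 4 KO arrays lay above all WT arrays and KO3 lay below 2 of them. Melk, a kinase with high expression in dividing progenitors, measured 4.78, 4.64 and 4.86 against 4.86, 5.26, 4.50 and 5.47, a difference of 0.26 (-0.27 to 0.80). Here the WT arrays were close together and the KO arrays were spread on both sides of them. The Aurora kinases had differences near 0: Aurka, of the spindle poles, differed by 0.02 (-0.53 to 0.56) and Aurkb, of the chromosomal passenger complex, by -0.05 (-0.76 to 0.66).

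The checkpoint genes Bub1 and Bub1b encode proteins that sit on unattached kinetochores. Bub1b measured 5.31, 6.03 and 6.02 on WT1 to WT3 and 6.03, 6.32, 5.60 and 6.46 on KO1 to KO4, a difference of 0.32 (-0.30 to 0.93) that was 0.08 without WT1. Bub1 was low on WT1, at 4.25 beside 5.53 on WT2 and 5.43 on WT3, and measured 5.23, 5.67, 4.95 and 5.77 on KO1 to KO4. Its difference of 0.34 (-0.49 to 1.16) had the opposite sign, -0.08, when WT1 was left out. Ttk, the kinase MPS1 that starts checkpoint signalling, differed by 0.06 (-0.69 to 0.82) and Cdc20, the APC/C activator that the checkpoint restrains, by 0.06 (-0.36 to 0.48).

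Ska3, a subunit of the SKA complex that couples kinetochores to shortening microtubules, was the only member whose labels did not overlap. It measured 4.35, 4.25 and 4.42 on WT1 to WT3 (4.34 ± 0.09, SD, n = 3) and 4.73, 5.13, 4.73 and 5.19 on KO1 to KO4 (4.95 ± 0.25, SD, n = 4). Each KO array was above each WT array, and WT1 was not the lowest for this gene. Over all genes tested, 1.77% had all KO arrays above all WT arrays and 0.679% all below. The difference was 0.61 (SE 0.15, 95% confidence interval 0.26 to 0.95), or 1.52-fold, with an unadjusted p of 0.00402 and an adjusted p of 0.971 in limma. It stayed between 0.52 and 0.68 with any single array left out and was 0.72 without WT3 and KO3. Its partner Ska1, not a member, differed by 0.16 (-0.11 to 0.43).

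The other kinetochore genes were less separated. Birc5, which encodes survivin, the passenger subunit that guides Aurora B, measured 5.74, 6.21 and 5.93 on WT1 to WT3 and 6.05, 6.18, 6.05 and 6.47 on KO1 to KO4. Its labels overlapped through WT2, with a difference of 0.23 (-0.13 to 0.59). Ndc80 and Nuf2, paired subunits of the complex that grips microtubules, differed by 0.46 (-0.28 to 1.21) and 0.53 (-0.38 to 1.44). Both differences were 0.15 without WT1, where Ndc80 measured 4.95 and Nuf2 5.13, the lowest values of each. Cenpf, an outer kinetochore protein, differed by -0.02 (-0.41 to 0.37).

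Of the kinesins, Kif2c, which encodes the microtubule depolymerase MCAK, measured 4.74, 5.16 and 5.41 on WT1 to WT3 and 5.36, 5.74, 5.36 and 5.71 on KO1 to KO4. Its labels overlapped through WT3, and the difference was 0.44 (0.00 to 0.87), with an unadjusted p of 0.0486 and an adjusted p of 0.971 in limma. Without WT1 it was 0.26. Kif20a, a motor of the central spindle, measured 5.33, 5.69 and 5.69 against 5.69, 6.09, 5.37 and 5.95, a difference of 0.21 (-0.24 to 0.65). KO1 had the same value as WT2 and WT3. Cenpe, the motor that moves chromosomes to the spindle equator, differed by 0.22, and Kif11, which pushes spindle poles apart, by 0.06. Kif4, a chromosome-bound motor, and Kif23, the motor of the centralspindlin complex, differed by 0.05 and 0.02.

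Genes of spindle microtubules had differences of 0.13 to 0.31. Tpx2, which activates Aurora A and nucleates microtubules, measured 5.41, 6.09 and 6.18 on WT1 to WT3 and 6.09, 6.48, 5.94 and 6.30 on KO1 to KO4, a difference of 0.31 (-0.20 to 0.82) that was 0.07 without WT1. Aspm, a spindle pole protein, measured 4.64, 5.21 and 5.01 against 4.97, 5.65, 5.01 and 5.01, where a single array, KO2, was high. Its difference of 0.21 (-0.29 to 0.70) was 0.04 without that array. Nusap1, Spag5 and the microtubule bundler Prc1 differed by 0.18, 0.13 and 0.15.

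Cytokinesis genes had differences of 0.31 to 0.42. Anln, anillin, the scaffold of the contractile ring, measured 6.09, 6.59 and 6.45 on WT1 to WT3 and 6.59, 7.01, 6.43 and 7.15 on KO1 to KO4. KO2 and KO4 lay above all WT arrays, KO1 had the same value as WT2, and the difference was 0.42 (-0.07 to 0.91), or 1.34-fold. Ect2, the exchange factor that switches on RhoA at the cleavage site, measured 4.45, 5.28 and 5.38 against 5.28, 5.73, 4.77 and 5.59. It differed by 0.31 (-0.40 to 1.02), and by 0.01 without WT1. Cep55, which acts at the final cut between daughter cells, differed by 0.34 (-0.57 to 1.24).

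Genes of chromosome structure, which include the common proliferation markers, had differences of 0.07 to 0.20. Mki67, which encodes the marker Ki-67, measured 6.85, 7.59 and 7.69 on WT1 to WT3 and 7.58, 7.79, 6.93 and 7.71 on KO1 to KO4. WT3 lay close to KO2, the highest array, and the difference was 0.13 (-0.52 to 0.78), with -0.14 when WT1 was left out. Ncapd2, a condensin subunit, measured 6.51, 7.29 and 7.25 against 7.26, 7.54, 6.67 and 7.38, a difference of 0.20 (-0.43 to 0.82) that became -0.06 without WT1. Top2a, the topoisomerase that untangles sister chromatids, differed by 0.07 (-0.67 to 0.82).

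**Figure D3:**
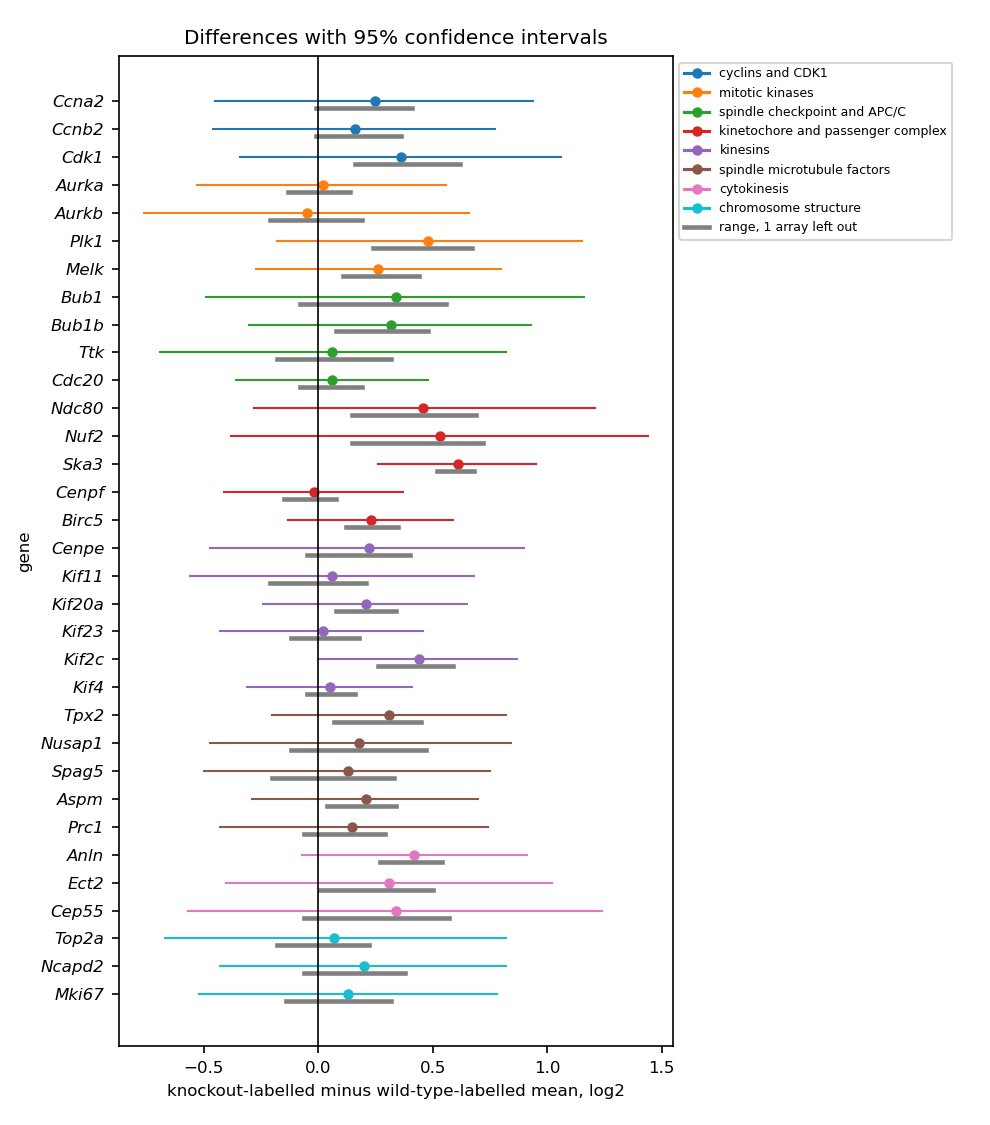
Difference of each mitotic gene between labels in log2 (dot) with its 95% confidence interval (line), coloured by role, and the range of the difference over the 7 fits with 1 array left out (grey bar). Ska3 at 0.61 and Kif2c at 0.44 have intervals that do not reach below 0, and the grey bars of 19 other genes cross 0.

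The difference of the whole set depended most on WT1, the array with the lowest mean of the set. Without WT1 the mean difference was 0.03 and 16 of 33 genes were higher. It was 0.13 without KO2 and 0.14 without KO4, with 26 and 27 genes higher. Without WT2 or without KO3 it was 0.35 in each case, with 32 and 33 genes higher. The mean difference was 0.30 without WT3 and 0.29 without KO1, with 30 and 32 genes higher. Without both WT3 and KO3 it was 0.42, with 32 genes higher, and 0 genes passed in any of these fits. Weighting arrays by their quality gave 0.12, with 25 genes higher. Among the members described above, the difference without WT1 was 0.16 for Cdk1, -0.01 for Ccna2, 0.24 for Plk1, 0.12 for Birc5, 0.08 for Kif20a, 0.05 for Aspm and 0.27 for Anln, while Melk kept 0.27.

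**Figure D4:**
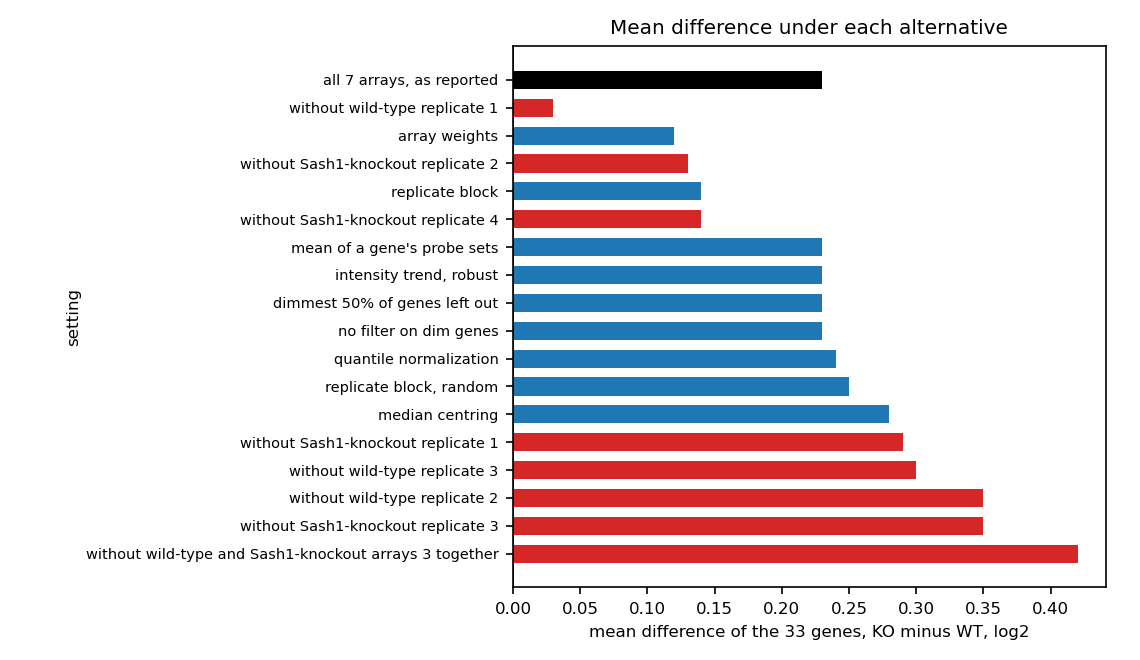
Mean difference of the 33 mitotic genes between labels (log2) with all 7 arrays (black), with arrays left out (red) and under other processing choices (blue); the fixed replicate block equals the fit without KO4, the only array numbered 4. Leaving out WT1 gave 0.03 and leaving out WT3 and KO3 together gave 0.42. The other filters, the intensity trend and the averaging of probe sets could not change the value of 0.23, since each member passed the filters and had a single probe set.

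Mitotic genes outside the set also had positive medians. Other kinetochore, centromere and checkpoint genes were higher in 21 of 25, with a median of 0.16, other spindle and cytokinesis genes in 17 of 24 (0.13), and other genes of mitotic entry, exit and condensins in 14 of 22 (0.07). In these 3 lists 0 genes passed in limma, and without WT1 the medians were 0.06, 0.00 and 0.02. Mad1l1, which anchors the checkpoint protein MAD2, differed by 0.39 (0.06 to 0.71), the microtubule protein gene Hmmr by 0.39 (-0.12 to 0.90), and Fzr1, the APC/C activator of late mitosis and early interphase, by 0.36 (0.07 to 0.64).

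DNA replication genes, which are expressed before mitosis, were higher in 30 of 36, with a median of 0.21, and averaged 5.38, 5.71 and 5.71 on WT1 to WT3 and 5.57, 5.87, 5.57 and 6.10 on KO1 to KO4. Without WT1 the median was 0.08 with 25 higher, and with any 1 array left out it lay between 0.07 and 0.27. As for the mitotic genes, WT1 was lowest and KO2 and KO4 were highest. Mcm2, a subunit of the replicative helicase, differed by 0.46 (0.03 to 0.89; adjusted p = 0.971 in limma), and 0 of the 36 genes passed. Cyclins and kinases of the G1 phase, which precedes replication, had a median of 0.05 with 6 of 10 higher, a sign that turned in some of the fits with 1 array left out (-0.05 to 0.17).

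The regulators of mitotic transcription had a median of 0.04, with 12 of 21 higher and 0 passing, and the sign turned in some of the fits with 1 array left out (-0.02 to 0.07, with 9 to 15 higher). Foxm1 measured 5.28, 5.60 and 5.40 on WT1 to WT3 and 5.23, 5.55, 5.03 and 5.40 on KO1 to KO4, a difference of -0.12 (-0.47 to 0.22), opposite in sign to most of the mitotic genes. Mybl2, the B-Myb factor that works with it, differed by 0.26 (-0.13 to 0.64). Nfya and Nfyb, which encode subunits of the CCAAT-binding factor, differed by 0.56 (0.06 to 1.06) and 0.32 (-0.01 to 0.65). Nfya measured 6.30, 6.40 and 7.03 against 7.15, 7.28, 6.79 and 7.33, so KO3 alone among the KO arrays lay below WT3. E2f7, a repressor of cell cycle genes, differed by -0.56 (-1.26 to 0.14). None of these passed (adjusted p = 0.971 in limma).

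Inhibitors of the cell cycle had a median of -0.04, which ranged from -0.05 to 0.04 with 1 array left out, with 6 of 14 higher and 0 passing. Cdkn1a, which encodes p21, an inhibitor of cyclin-dependent kinases, measured 11.18, 11.07 and 8.76 on WT1 to WT3 and 9.22, 9.28, 10.71 and 9.08 on KO1 to KO4. It was high on WT1, WT2 and KO3 and low on the other 4 arrays, across the labels, and the difference was -0.76 (-2.34 to 0.81). It ranged from -1.55 to -0.34 with 1 array left out and was -1.93 without WT3 and KO3. Cdkn1c, which encodes p57, measured between 5.61 and 6.67 on all arrays.

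Other measures also varied from array to array, and their part in the difference was not tested. Immediate early and dissociation stress genes averaged 8.49, 8.27 and 7.00 on WT1 to WT3 and 7.97, 7.00, 8.79 and 6.51 on KO1 to KO4, with 16 of 19 differences negative. They were highest on KO3 and WT1, where mitotic genes were lowest of their label, and were also high on WT2, where mitotic genes were not low. Lung epithelial markers averaged 7.96, 7.65 and 6.94 against 7.69, 7.16, 7.81 and 6.45, with 16 of 20 negative, and leukocyte markers 6.23, 6.08 and 5.59 against 5.98, 5.62, 6.05 and 5.04, with 17 of 20 negative. Both lists were lowest on KO4, unevenly by gene. Of the epithelial markers, Lamp3 measured 2.97 on KO4 against 6.84 to 8.37 on the other arrays, while Ager, at 9.99, stayed within their range (9.15 to 10.40). Of the leukocyte markers, Lyz1 measured 4.02 against 8.93 to 11.09, while S100a8, at 10.32, stayed within range (8.92 to 10.71). The median difference was -0.38 for stress genes, -0.20 for epithelial and -0.20 for leukocyte markers. With 1 array left out these ranged from -1.0 to 0.03 for stress genes, from -0.43 to 0.04 for epithelial and from -0.42 to -0.08 for leukocyte markers, so the sign turned for stress and epithelial genes. Epcam averaged 5.03 ± 0.34 (SD, n = 3) on WT arrays and 4.88 ± 0.55 (SD, n = 4) on KO arrays, and Ptprc, which encodes the CD45 antigen selected against, 4.67 ± 0.20 and 4.34 ± 0.56. Fibroblast and mural cell markers averaged 7.01 to 7.44 against 6.96 to 7.55 (12 of 16 positive), mesothelial markers 4.69 to 5.54 against 4.52 to 5.15 (4 of 8 positive, median -0.15, from -0.43 to 0.17 with 1 array left out), and erythroid markers 4.00 to 4.13 against 4.00 to 4.31 (4 of 5 positive). In all 6 marker lists 0 genes passed.

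**Figure D5:**
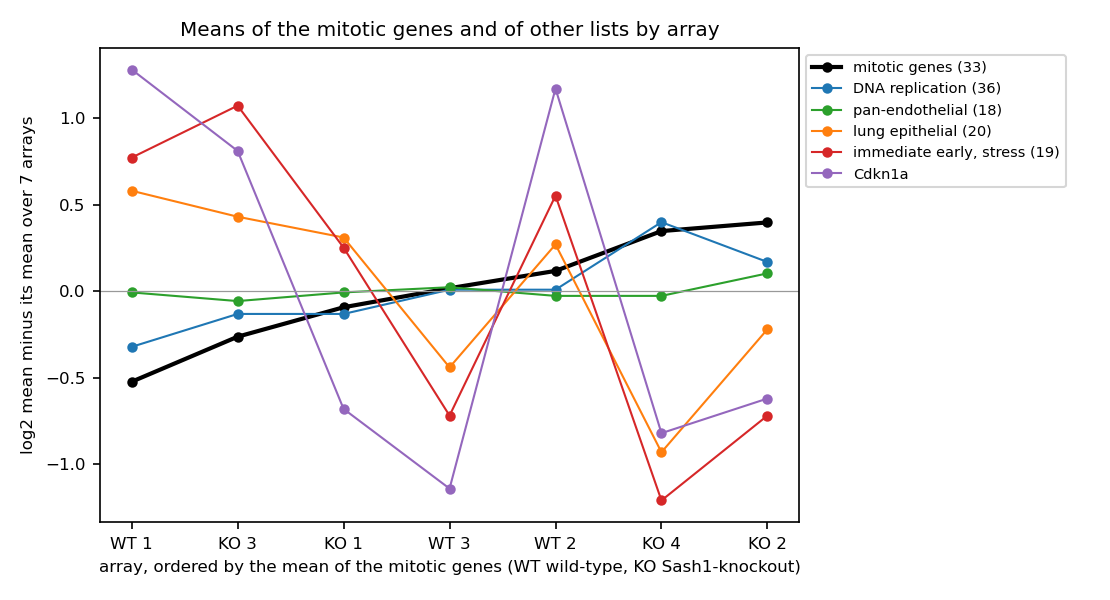
Mean log2 signal per array of the mitotic genes, of 4 other lists and of Cdkn1a, each as the difference from its own mean over the 7 arrays, with arrays ordered by the mitotic mean. DNA replication genes follow the mitotic genes, the pan-endothelial list stays near 0, and the stress list and Cdkn1a are high on WT1, KO3 and WT2.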

How the data were processed

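The authors deposited 1 log2 value per probe set and array, made with RMA in Affymetrix Expression Console 1.1, per the submitters' processing notes; that the scale is log2 was read from the values. Of 41345 probe sets, 23521 had 1 gene symbol in GEO's platform annotation, 1814 several and 16010 none listed; symbols were updated through RefSeq (GRCm38.p6; 99.2% of gene identifiers found). Each gene took its brightest probe set over the 7 arrays. The array design's genome build: not given in the sources used here. The 16637 genes left after the filter were fitted with limma 3.58.1 (lmFit, eBayes, R 4.3.3), two-sided, genotype as the only term. The number of arrays limits the precision: the median 95% interval reached 0.62 either side of the difference for the mitotic genes and 0.35 over all genes tested. The fit was also run on simulated data with independent noise for each gene, which lacks the movement shared between genes seen here.

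The members and gene lists were chosen with earlier results of these data known, so no p is given for the set. Values per array were given for the 2 members of smallest unadjusted p in each of 8 roles, promoters for the 6 of smallest p among those that led a role and held CHR letters, and at most 4 genes of other lists by the same rank, beside Sash1, Pecam1, Ptprc, Epcam, Foxm1, Mybl2, Cdkn1a and Cdkn1c. Sftpc, Lamp3, Ager, Lyz1 and S100a8 were added outside this rule for their values on KO4. Alternatives were other filters, quantile normalization, median centring, all probe sets averaged, an intensity trend, array weights, replicate blocks, a threshold of 0.1 and arrays left out.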

Additional observations from a re-analysis of the deposited data

Results flagged for a closer look

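Each of 56 values, members or list means in the 4 KO arrays, was tested for an array standing apart with Dixon's test at its 95% critical value, which chance exceeds in about 1 of 20 groups; 1 did. Aspm, a spindle pole gene, measured 5.65 on KO2, while the other KO arrays lay at 4.97, 5.01 and 5.01, so the gap was 0.941 of the range.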

How the results depend on the processing

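In limma 0 members and 0 genes of the whole table passed under every alternative run, including a threshold of 0.1. With all arrays, 556 of 16637 genes (3.34%) had an unadjusted p under 0.05. Over the alternatives this number ranged from 225 of 16637 under the fixed replicate block to 1779 of 16637 without WT3 and KO3. It was 1314 without WT3 alone and 1310 with array weights. With 1 array left out, the mean difference of the mitotic genes ranged from 0.03 to 0.35, their median from -0.01 to 0.36, and the number higher from 16 to 33. KO4 alone carries number 4, so a fixed block for the replicate number absorbs it and gives the same differences as leaving out KO4: the mean was 0.14 and 27 members were higher. With a random block the mean was 0.25 and 31 were higher. The deviations of same-numbered arrays were negatively correlated (r of -0.18, -0.20 and -0.55 for numbers 1, 2 and 3), and 0 of 6 numbered arrays correlated best with its own number, so the numbers were not taken to pair samples. Signs turned for 19 of 33 members under at least 1 alternative. With all arrays in use they turned under array weights for Aurka (-0.08), Kif11 (-0.04), Kif23 (-0.13), Kif4 (-0.06), Nusap1 (-0.04) and Top2a (-0.09), and with median centring for Aurkb (0.01) and Cenpf (0.04). Under the fixed replicate block, in effect without KO4, they turned for Aurka (-0.13), Cdc20 (-0.08), Cenpf (0.00), Kif11 (-0.01), Top2a (-0.04) and Ttk (-0.18). Without WT3 and KO3 together Cenpf was 0.06. With 1 array left out, signs turned for Ccna2 (-0.01 to 0.41), Ccnb2 (-0.01 to 0.36), Aurka (-0.13 to 0.14), Aurkb (-0.21 to 0.19), Bub1 (-0.08 to 0.56), Ttk (-0.18 to 0.32), Cdc20 (-0.08 to 0.19), Cenpf (-0.15 to 0.08), Cenpe (-0.05 to 0.40), Kif11 (-0.21 to 0.21), Kif23 (-0.12 to 0.18), Kif4 (-0.05 to 0.16), Nusap1 (-0.12 to 0.47), Spag5 (-0.20 to 0.33), Prc1 (-0.06 to 0.29), Cep55 (-0.06 to 0.57), Top2a (-0.18 to 0.22), Ncapd2 (-0.06 to 0.38) and Mki67 (-0.14 to 0.32), 15 of them without WT1. The cause was not tested.

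The 3 and 4 arrays limit what could be seen: the confidence intervals of 31 of 33 members spanned 0.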

Other observations

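The differences of genes that share the promoter letters but are no members are given as a description, and no difference between these sets was tested. Of 568 tested non-members with CHR letters within 50 bases of a start, 59.0% had positive differences, with a median of 0.03. Of 248 that also had a CCAAT, 54.4% did, with a median of 0.02, and of 12338 without the letters there, 54.5%, with a median of 0.02.

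Of 16 fibroblast and mural cell markers, only Tcf21, a factor of lung fibroblasts, had KO arrays that all lay above the WT arrays. Over all genes tested, 1.77% did. The difference of Tcf21 was 0.47 (95% confidence interval 0.10 to 0.85; adjusted p = 0.971 in limma). The list had a median of 0.12, with 12 positive and 4 negative differences. The same value on 3 or more arrays was found for 4 of the 33 mitotic genes and for 31.6% of the genes tested.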
